A study of Mus musculus with 30 samples.

Results

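The genes described here are 9 mouse genes used as markers of neutrophils and inflammatory myeloid cells, namely S100a8, S100a9, Retnlg, Ly6g, Il1b, Il1r2, Trem1, Clec4d and Clec4e. They were taken as a list of symbols, and each symbol was found once among the 53431 genes measured. The levels come from RNA-seq of 30 libraries in 8 groups. CT-26 and Colon 26 are colon carcinoma cell lines of BALB/c mice, and both form tumors when injected into such mice. Each line gave 3 libraries from cell culture and 12 libraries from tumors grown under the flank skin of female BALB/c mice, 4 at each of 100, 400 and 800 mm3. Labelled volumes of the 3 sizes were 103.33 to 145.86, 400.47 to 464.68 and 810.36 to 938.57 mm3 for CT-26, and 102.9 to 124.88, 401.52 to 466.73 and 807.93 to 963.18 mm3 for Colon 26. The labels describe antibody dosing in the study as a whole but name no antibody for any library, and the age of the mice is not given in the sources used here. Each model is a single transplanted line, so a difference between the models is a difference between these lines and their hosts' response to them.

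Neutrophils are short-lived white blood cells that leave the blood for inflamed tissue, drawn by CXC chemokines that bind the receptor Cxcr2. S100a8 and S100a9 encode the 2 subunits of calprotectin, a calcium-binding protein that fills the neutrophil cytoplasm, Retnlg encodes a small secreted protein of mouse neutrophils, and Ly6g encodes the surface antigen by which mouse neutrophils are sorted. Il1b encodes the cytokine interleukin-1 beta and Il1r2 its decoy receptor, which binds the cytokine without signaling. Trem1 encodes a surface receptor that amplifies inflammatory signals, and Clec4d and Clec4e encode neighboring C-type lectin receptors that sense microbial glycolipids and damaged cells. Not all of these genes are restricted to neutrophils. For example, monocytes and macrophages also express Il1b, Trem1, Clec4d and Clec4e when activated, and keratinocytes make S100a8 and S100a9.

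The libraries held 21384730 to 39722586 counts on genes (median 28527424). Levels are given as CPM, the counts of a gene scaled to library size with TMM factors, and levels of different genes are compared as FPKM, which also divides by gene length. In tumors, 3 counts correspond to 0.0825 to 0.128 CPM, and a level under 3 counts was treated as the floor. Intervals and floors cover counting error only. Each of the 24 tumor libraries carries its own labelled volume and so came from its own tumor. Nothing states that the 3 culture libraries of a line came from separate cultures, so the spread between them may be technical. The cultures of the lines were numbered in separate series and those of Colon 26 were sequenced more deeply, so model and batch cannot be told apart in culture. In RNA from whole tumors, fewer cells of a type and less RNA per cell cannot be told apart.

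The list is named after neutrophils, and the markers of that cell type were checked first. Ly6g had 0 to 2 counts in every library, 8 counts in all over the 24 tumors, and 2 counts in 1 CT-26 culture. Among other neutrophil markers, the granule genes Camp and Ngp had no count in 15 and 17 of the 24 tumors and at most 4 and 15 counts in the others, and Elane had none in 20. The cytokine receptor Csf3r was present with 80 to 619 counts per tumor, the chemokine receptor Cxcr2 with 2 to 86, and the collagenase Mmp8 with 1 to 76. Another granule gene, Ctsg, which mast cells also express, reached 231 counts and averaged 3.10 CPM in CT-26 tumors and 0.217 CPM in Colon 26 tumors. Since Ly6g, Camp, Ngp and Elane were at or near 0 while S100a8, S100a9 and Cxcr2 were measurable, the genes are called here by their names rather than as a neutrophil signature.

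All 9 genes were found among RefSeq promoter windows of GRCm38.p6, which run from 250 bases before to 50 bases after the annotated start. The 250 bases before the start are shown for S100a8 and S100a9, the 2 calprotectin genes that moved together among tumors, and for Il1b and Trem1, whose levels differed in opposite directions between the models. Capitals mark matches on either strand to 5 motifs. The TATA box was searched as TATAAA, the C/EBP motif as TTGCNNAA, the PU.1 motif as GAGGAAGT, the AP-1 motif as TGANTCA and the NF-kB motif as its usual consensus. The windows lie at chr3:90668821-90669070 on the plus strand for S100a8, chr3:90695722-90695971 on the minus strand for S100a9, chr2:129371140-129371389 on the minus strand for Il1b and chr17:48232489-48232738 on the plus strand for Trem1.
S100a8: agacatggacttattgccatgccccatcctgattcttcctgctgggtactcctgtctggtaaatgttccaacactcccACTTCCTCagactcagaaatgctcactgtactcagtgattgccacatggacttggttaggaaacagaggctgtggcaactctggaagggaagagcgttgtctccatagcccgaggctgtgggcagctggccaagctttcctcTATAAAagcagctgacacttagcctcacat
S100a9: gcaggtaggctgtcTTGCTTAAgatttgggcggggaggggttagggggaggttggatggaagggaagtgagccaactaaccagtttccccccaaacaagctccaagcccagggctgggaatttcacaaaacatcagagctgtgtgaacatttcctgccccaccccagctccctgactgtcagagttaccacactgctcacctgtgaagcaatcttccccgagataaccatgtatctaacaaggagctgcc
Il1b: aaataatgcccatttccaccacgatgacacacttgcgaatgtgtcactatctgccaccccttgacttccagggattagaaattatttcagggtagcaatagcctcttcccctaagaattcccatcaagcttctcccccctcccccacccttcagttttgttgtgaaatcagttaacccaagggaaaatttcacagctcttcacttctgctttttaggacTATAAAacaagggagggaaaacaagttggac
Trem1: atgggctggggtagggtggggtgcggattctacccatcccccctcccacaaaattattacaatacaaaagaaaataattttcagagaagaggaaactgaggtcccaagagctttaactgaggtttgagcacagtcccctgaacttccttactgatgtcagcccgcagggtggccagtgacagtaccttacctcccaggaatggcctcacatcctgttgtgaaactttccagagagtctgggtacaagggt
S100a8 held a TATA box and the reverse complement of the PU.1 motif. S100a9 held the C/EBP motif near the 5′ end of the run. Its TATAAA match began at base 251 of the window, just after the bases shown and at the annotated start itself. Whether that match acts as a TATA box was not tested. Il1b held a TATA box and Trem1 none of the 5 motifs. Over all 9 genes, 5 genes held TATAAA, against 13.6% of 32851 promoter windows. Ly6g had 2 windows and was counted once, so these tallies are by gene while the shares are by window. The C/EBP motif was in 4 (10.8% of all windows), the PU.1 motif in 2 (3.20%), and NF-kB and AP-1 in 0 (8.46% and 7.81%), and 3 genes, Il1r2, Trem1 and Clec4d, held no match. No match means only that these letters are not in the window, and no matches of different motifs overlapped in the 4 windows shown. S100a8 and S100a9 lie close to each other at chr3:90668978-90670035 and chr3:90692632-90695721. Clec4d and Clec4e are likewise neighbors, at chr6:123262111-123275265 and chr6:123281789-123289870. The exons of Il1b overlap those of Il1bos on the other strand, and how the counting treated strand is not given in the sources used here, so reads of these 2 genes cannot be told apart.

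The 9 genes were almost silent in the cell lines, and 7 of them had counts in every tumor, the exceptions being Ly6g and Retnlg. In CT-26 cultures Clec4d had 2, 2 and 5 counts, S100a8 had 2, 0 and 2, and Il1r2, Clec4e and Retnlg had none. In Colon 26 cultures S100a8 had 4, 5 and 1 counts and S100a9 4, 3 and 1, while Trem1, Clec4d, Clec4e and Retnlg had none. No gene of the list passed the filter on low counts in the comparison of the cultures, in which 22.9% of 14334 genes passed the thresholds. DESeq2 called Clec4d there, lower in Colon 26. The thresholds, here and in all comparisons, were an adjusted p of at most 0.1 and a log2 fold change of at least 1 in size.

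In CT-26 tumors of 100 mm3, 6 of 6 genes tested were higher than in culture by edgeR's quasi-likelihood test, where 22.2% of 15370 genes were called higher. In Colon 26 it was 7 of 7, where 20.8% of 15946 genes were. The listed genes had at most 5 counts in any culture, so a gene could enter these tests only through its tumors. These tallies were therefore largely fixed by the filter and cannot be weighed against the shares of all genes. With counts summed over each group, Clec4e was at least 152-fold higher in CT-26 tumors than the floor of 3 counts over the culture group, and Il1r2 at least 29.6-fold. Il1b had 1621 counts in these tumors and 1 in the cultures, a ratio of 1076 (95% exact interval 193 to 42511). In Colon 26, Trem1 was at least 604-fold, Clec4d at least 521-fold and Clec4e at least 472-fold higher in tumors. The calprotectin gene S100a8 had a smaller ratio, 7.96 in CT-26 (interval 2.92 to 30.4), where it had too few counts for the test, and 9.40 in Colon 26 (4.89 to 20.2). Ly6g had no count in the 100 mm3 tumors of either model and 3 and 1 counts in the cultures, and no fold is given for it.

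The tumors were also where leukocyte RNA was found. Ptprc, the pan-leukocyte gene, stood at 43.3 to 186 CPM in tumors and at most 0.209 CPM in cultures.

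The order of the genes by FPKM differed between the models and with size. In CT-26 tumors of 100 mm3 Il1b stood highest, at 11.002 ± 4.95 FPKM (SD, n = 4), followed by Clec4d at 8.46 ± 4.45, and these 2 did not differ beyond their spread. Clec4e (2.42 ± 1.59), S100a9 (1.85 ± 0.503), Trem1 (1.27 ± 0.645), S100a8 (0.911 ± 0.561) and Il1r2 (0.854 ± 0.288) followed, the range of each overlapping that of the one before it, with Retnlg far below at 0.0138 FPKM. In CT-26 tumors of 400 mm3 S100a9 led at 33.4 ± 21.9 FPKM, ahead of Il1b at 25.8 ± 11.5 and S100a8 at 11.02 ± 7.68, again with overlapping spreads. In Colon 26 tumors of 100 mm3 Clec4d led at 10.0 ± 1.73, and Il1b (6.08 ± 2.97), Trem1 (5.22 ± 0.884), Clec4e (4.87 ± 0.928) and S100a9 (3.74 ± 0.909) followed, the range of each again overlapping that of the one before it. In Colon 26 tumors of 400 and 800 mm3 Il1b led at 8.93 ± 4.56 and 14.0 ± 5.05 FPKM, and S100a9 stood at 2.26 ± 1.97 and 3.85 ± 1.32. S100a9 thus had the highest mean FPKM in the larger CT-26 tumors, with spreads that overlapped those of Il1b, and stood at rank 4 or 5 in the Colon 26 groups.

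**Figure D1:**
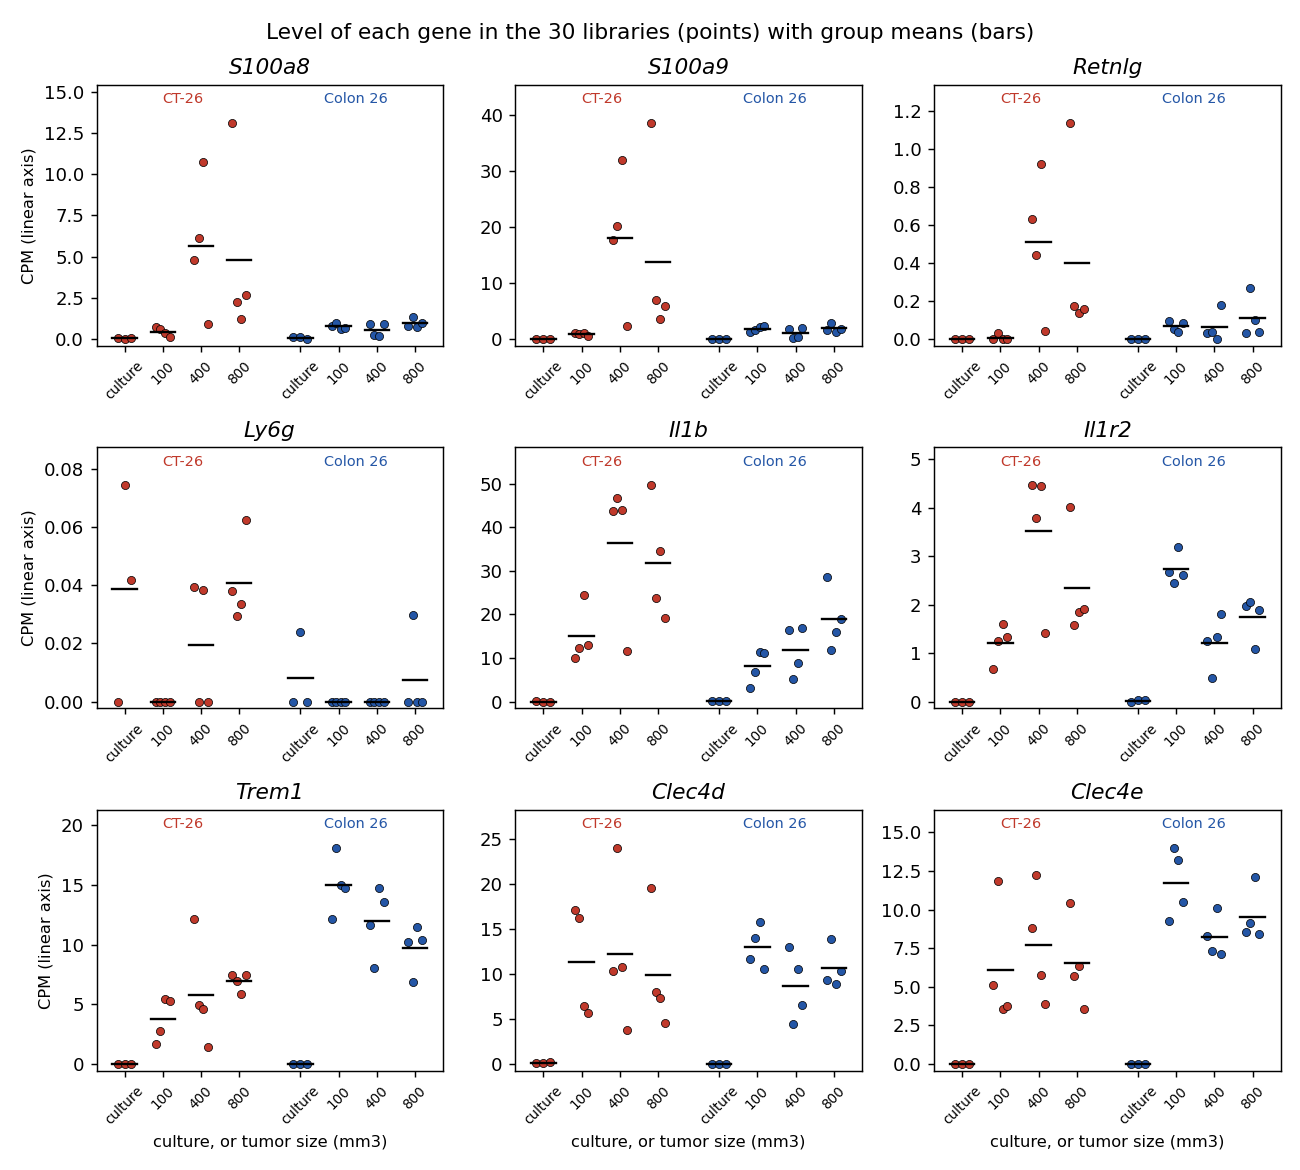
Level of each of the 9 genes in CPM (linear axis, its own scale for each gene) in the 30 libraries, by culture or tumor size, with CT-26 in red, Colon 26 in blue and group means as bars. The highest tumors for S100a8, S100a9 and Retnlg are CT-26 tumors of 400 and 800 mm3, among which 1 tumor at 800 mm3 stands far above the other 3, Trem1 has the higher mean in Colon 26 at each size, and Ly6g stays at or below 0.0743 CPM.

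S100a8 and S100a9, the calprotectin subunits, were higher in CT-26 tumors of 400 and 800 mm3 than in those of 100 mm3, and they did not pass the test with size in Colon 26. Their CT-26 medians were lower at 800 than at 400 mm3 (2.46 and 5.46 CPM for S100a8, 6.46 and 18.9 CPM for S100a9), a step that was not tested. S100a8 stood at 0.760, 0.588, 0.351 and 0.103 CPM in the 4 CT-26 tumors of 100 mm3, at 4.81, 6.10, 10.7 and 0.898 at 400 mm3, and at 13.1, 2.26, 1.25 and 2.65 at 800 mm3. Every larger CT-26 tumor was above every small one, but 1 tumor at 400 mm3 was close to them and 1 at 800 mm3 stood far above the rest. In Colon 26 the levels were 0.808, 0.962, 0.637 and 0.660 CPM at 100 mm3, 0.943, 0.227, 0.215 and 0.903 at 400 mm3, and 0.798, 1.31, 0.727 and 0.996 at 800 mm3, and the 3 sizes overlapped.

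S100a9 followed the same course at a higher level. It stood at 1.14, 0.948, 1.17 and 0.583 CPM in CT-26 tumors of 100 mm3, at 17.7, 20.1, 31.9 and 2.39 at 400 mm3, and at 38.5, 6.96, 3.57 and 5.95 at 800 mm3. The low tumor at 400 mm3 and the high tumor at 800 mm3 were the same tumors as for S100a8, named here replicate 4 and replicate 1 of their groups. In Colon 26 S100a9 ranged from 1.36 to 2.39 CPM at 100 mm3, from 0.190 to 2.06 at 400 mm3 and from 1.36 to 2.90 at 800 mm3. The FPKM of S100a9 was 0.791 to 5.37 times that of S100a8 over the 24 tumors (median 2.15).

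Within CT-26, S100a8 rose from 100 to 400 mm3 by 3.68 ± 0.76 on the log2 scale (standard error, adjusted p = 0.0103 by edgeR's quasi-likelihood test) and S100a9 by 4.26 ± 0.80 (adjusted p = 0.0073). Both kept their call when any 1 of the 24 tumors was left out. From 100 to 800 mm3 S100a8 rose by 3.40 ± 0.76 (adjusted p = 0.0694) and S100a9 by 3.83 ± 0.79 (adjusted p = 0.0566). These calls were less firm, since both genes missed the threshold without replicate 4 of the 100 mm3 CT-26 tumors (adjusted p = 0.254 and 0.207). Without replicate 1 of the 800 mm3 CT-26 tumors the rises were 2.19 and 2.52. S100a8 alone missed the threshold without replicate 3 of the 100 mm3 CT-26 tumors (adjusted p = 0.111) or without replicate 4 of the 800 mm3 CT-26 tumors (adjusted p = 0.115). In Colon 26 the log2 changes of S100a8 were -0.44 ± 0.75 at 400 mm3 and 0.31 ± 0.72 at 800 mm3, and those of S100a9 -0.74 ± 0.76 and 0.06 ± 0.73.

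Between the models, the differences at 100 mm3 and at the larger sizes had opposite signs. At 100 mm3 S100a9 was higher in each Colon 26 tumor than in any CT-26 tumor, with means of 1.88 ± 0.457 and 0.960 ± 0.270 CPM. Its log2 difference of 0.96 ± 0.27 (adjusted p = 0.0165) fell just short of the minimum of 1 (1.01 when scaled by library size alone), and it reached that minimum in 4 of the 8 fits that left out 1 tumor, namely without replicates 1 or 3 of CT-26 (1.06 and 1.08) and replicates 1 or 2 of Colon 26 (1.09 and 1.03). S100a8 differed by 0.78 ± 0.46 (adjusted p = 0.193), and by 1.14 (adjusted p = 0.0864) without CT-26 replicate 1. At 400 mm3 both were lower in Colon 26, S100a8 with a log2 difference of -3.30 ± 0.77 (adjusted p = 0.00763) and S100a9 with one of -4.003 ± 0.89 (adjusted p = 0.00586). At 800 mm3 the log2 differences were -2.31 ± 0.68 (adjusted p = 0.016) and -2.81 ± 0.72 (adjusted p = 0.00773). All 4 of these calls held without any 1 of the 8 tumors, but the sizes at 800 mm3 rested largely on replicate 1 of CT-26, without which the differences were -1.09 and -1.48.

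Retnlg, the resistin-like gene of neutrophils, was near the floor outside the larger CT-26 tumors. It had 0, 1, 0 and 0 counts in CT-26 tumors of 100 mm3, 16, 13, 24 and 1 at 400 mm3, and 30, 6, 4 and 5 at 800 mm3. The low and the high tumor were again replicate 4 at 400 mm3 and replicate 1 at 800 mm3. Colon 26 tumors had 0 to 9 counts. Summed over each group, Retnlg had 54 counts at 400 mm3 against 1 at 100 mm3 in CT-26, a ratio of 56.6 with a 95% exact interval of 9.73 to 2275. The change passed the test at 400 mm3 (adjusted p = 0.0148) and missed it at 800 mm3 (adjusted p = 0.111), where the ratio was 40.2 (interval 6.85 to 1621). Only larger CT-26 tumors carried Retnlg past the filter on low counts, so within CT-26 the test could only show a rise. At 800 mm3 it passed in 2 of 24 fits without 1 tumor, those without CT-26 replicate 4 (adjusted p = 0.0711) or Colon 26 replicate 1 (adjusted p = 0.0959) of 400 mm3. Its counts were too few for edgeR's test between the models at any single size, and DESeq2 called it lower in Colon 26 at 400 mm3. Ly6g had 0 counts in all CT-26 tumors of 100 mm3, 1, 0, 1 and 0 at 400 mm3, and 1, 1, 1 and 2 at 800 mm3, and these counts are at or below the floor in every tumor.

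Il1b rose from 100 to 400 mm3 in CT-26 and was lower in Colon 26 at 400 mm3. In CT-26 it stood at 9.96, 12.3, 24.6 and 13.01 CPM at 100 mm3, at 43.6, 46.8, 43.9 and 11.6 at 400 mm3, and at 49.6, 23.7, 34.6 and 19.1 at 800 mm3. The 3 high tumors at 400 mm3 lay close together, and the fourth, replicate 4, fell among the small tumors. In Colon 26 it stood at 3.10, 6.68, 11.4 and 11.2 CPM at 100 mm3, at 16.5, 5.16, 8.86 and 16.9 at 400 mm3, and at 28.6, 11.8, 15.9 and 19.0 at 800 mm3. The smallest and largest Colon 26 tumors did not overlap.

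The rise of Il1b from 100 to 400 mm3 in CT-26 was 1.31 ± 0.46 on the log2 scale (adjusted p = 0.068). It missed the threshold in 6 of the 24 fits that left out 1 tumor, those without CT-26 replicate 1, 2 or 4 at 100 mm3 (adjusted p = 0.158, 0.119 and 0.172) or replicate 1, 2 or 3 at 400 mm3 (adjusted p = 0.148, 0.147 and 0.180). Its change from 100 to 800 mm3 was 1.07 ± 0.46 in CT-26 (adjusted p = 0.303) and 1.22 ± 0.47 in Colon 26 (adjusted p = 0.277), neither past the threshold. Il1b was lower in Colon 26 at 400 mm3 with a log2 difference of -1.62 ± 0.49 (adjusted p = 0.025), and the call held without any 1 of the 8 tumors. The differences at 100 and 800 mm3 were -0.90 ± 0.42 (adjusted p = 0.105) and -0.76 ± 0.32 (adjusted p = 0.0718). They passed in some fits without 1 tumor, at 100 mm3 without CT-26 replicate 1 (-1.04) or Colon 26 replicate 3 or 4 (-1.09 in both) and at 800 mm3 without Colon 26 replicate 1 (-1.03).

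Il1r2, the decoy receptor for interleukin-1, was higher in Colon 26 at 100 mm3 and lower there at 400 mm3. In CT-26 it stood at 0.675, 1.24, 1.599 and 1.34 CPM at 100 mm3, at 4.46, 3.78, 4.45 and 1.41 at 400 mm3, and at 4.01, 1.59, 1.85 and 1.90 at 800 mm3. Replicate 4 at 400 mm3 was once more within the range of the small tumors. In Colon 26 it stood at 2.68, 2.45, 3.18 and 2.60 CPM at 100 mm3, at 1.25, 0.493, 1.32 and 1.81 at 400 mm3, and at 1.98, 2.06, 1.09 and 1.88 at 800 mm3, so the small Colon 26 tumors lay above all larger ones.

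At 100 mm3 Il1r2 was higher in Colon 26 by a log2 difference of 1.15 ± 0.25 (adjusted p = 0.00456) with groups that did not overlap. Without CT-26 replicate 1 this difference was 0.97, under the minimum. At 400 mm3 it was lower in Colon 26 with a log2 difference of -1.53 ± 0.45 (adjusted p = 0.0219), and at 800 mm3 the difference was -0.41 ± 0.33 (adjusted p = 0.321). Within CT-26 it rose from 100 to 400 mm3 by 1.56 ± 0.38 (adjusted p = 0.0186), in all 24 fits that left out 1 tumor. Within Colon 26 its change over the same step was -1.17 ± 0.38, which did not pass the test (adjusted p = 0.347).

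Trem1 was higher in Colon 26, most clearly in the smallest tumors. It stood at 1.69, 2.75, 5.46 and 5.28 CPM in CT-26 tumors of 100 mm3 and at 12.1, 18.1, 15.0 and 14.7 in Colon 26 tumors of that size. At 400 mm3 the levels were 12.2, 4.91, 4.64 and 1.45 in CT-26 and 11.6, 8.07, 14.7 and 13.6 in Colon 26, and at 800 mm3 7.46, 6.96, 5.86 and 7.48 against 10.2, 6.90, 11.5 and 10.4. The groups were apart at 100 mm3 and overlapped at the larger sizes, at 400 mm3 through 1 CT-26 tumor.

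The log2 difference of Trem1 was 1.97 ± 0.34 at 100 mm3 (adjusted p = 0.0013), a call that held in all 8 fits without 1 tumor. At 400 mm3 it was 1.05 ± 0.51 (adjusted p = 0.13), and without CT-26 replicate 1 it was 1.69 with an adjusted p of 0.0163. DESeq2 called it there (1.04, adjusted p = 0.078). So did edgeR with all 30 libraries in 1 fit (adjusted p = 0.0273) and limma on log2(FPKM + 0.1) (adjusted p = 0.0481). The other processing settings did not. At 800 mm3 it was 0.48 ± 0.16 (adjusted p = 0.0294), under the minimum fold. Trem1 did not pass the test with size in either model. Its log2 changes at 800 mm3 were 0.86 ± 0.41 in CT-26 (adjusted p = 0.354) and -0.63 ± 0.39 in Colon 26 (adjusted p = 0.542).

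Clec4d and Clec4e, the lectin receptor neighbors, passed the test in no comparison between tumor groups. Clec4d ranged from 3.76 to 23.97 CPM over the 12 CT-26 tumors (median 9.14) and from 4.44 to 15.8 over the 12 Colon 26 tumors (median 10.51). Its log2 differences between the models were 0.19 ± 0.36, -0.50 ± 0.52 and 0.11 ± 0.38 at the 3 sizes. The approximate 95% interval ran from -0.52 to 0.90 at 100 mm3 and from -1.53 to 0.52 at 400 mm3, which reaches past the minimum fold. Clec4e ranged from 3.58 to 12.3 CPM in CT-26 and from 7.15 to 14.0 in Colon 26, with log2 differences of 0.93 ± 0.37 at 100 mm3 (adjusted p = 0.0656), 0.09 ± 0.32 at 400 mm3 and 0.55 ± 0.27 at 800 mm3 (adjusted p = 0.119). At 100 mm3 Clec4e passed without CT-26 replicate 2, its highest CT-26 tumor (1.49), and without Colon 26 replicate 1 (1.03). Neither lectin gene passed the test with size in either model.

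Counted together, 2 of the 7 genes tested at 100 mm3 were higher in Colon 26 (Il1r2 and Trem1) and 0 were lower. There 6.17% of 15406 genes were called higher and 7.06% lower. At 400 mm3 4 of 7 were lower in Colon 26 (S100a8, S100a9, Il1b and Il1r2), where 7.79% of 15241 genes were, and 0 were higher (6.48% of all). DESeq2 called the same 4 at that size, with Retnlg lower and Trem1 higher. At 800 mm3 2 of 7 were lower (S100a8 and S100a9), where 7.62% of 15521 genes were, and 0 were higher (6.5% of all). The groups did not overlap for 3, 1 and 1 of the 7 genes at the 3 sizes, against 47.9, 43.5 and 48.3% of all genes tested. Over all 24 tumors with size in the model, S100a8 (-1.79 ± 0.57), S100a9 (-2.17 ± 0.67) and Il1b (-1.09 ± 0.27) were lower in Colon 26 and Trem1 (1.16 ± 0.26) was higher, 4 of 7 genes where 14.2% of 16099 were called, 6.43% higher and 7.74% lower. That fit averages over sizes at which S100a8 and S100a9 differed in sign, the difference of S100a9 was -1.58 without replicate 1 of the 800 mm3 CT-26 tumors, and the call of Il1b was lost without Colon 26 replicate 2 at 400 mm3 (-0.99).

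**Figure D2:**
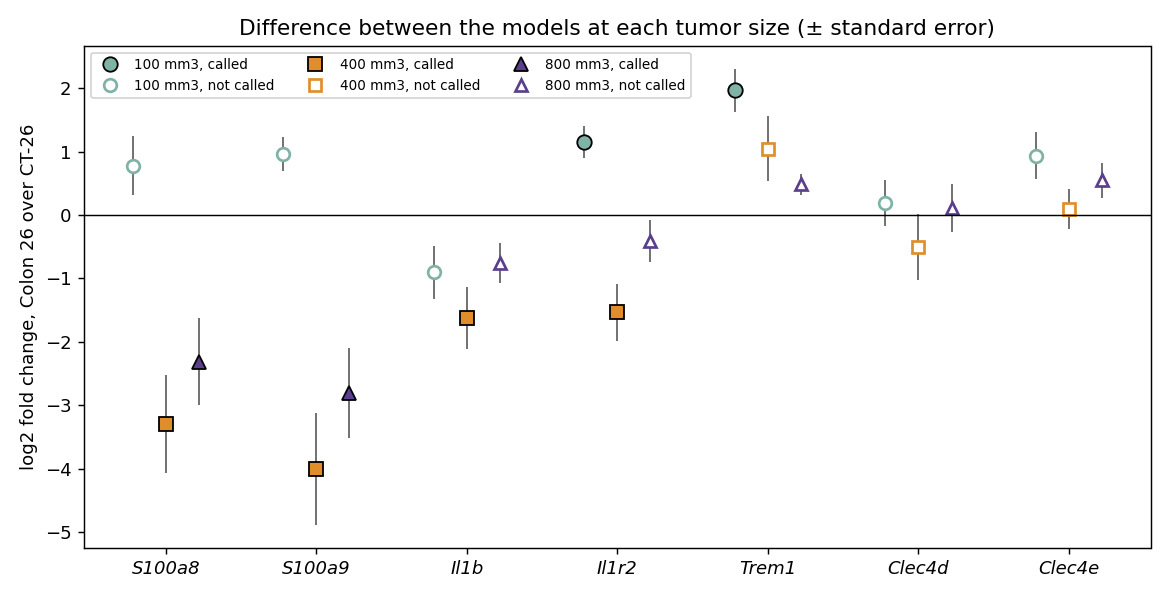
Log2 fold change of Colon 26 over CT-26 tumors, with its standard error, for the 7 genes tested at 100 (circles), 400 (squares) and 800 mm3 (triangles), with filled symbols for genes past both thresholds. S100a8 and S100a9 lie above 0 at 100 mm3 and between -4.003 and -2.31 at the larger sizes, while Trem1 lies above 0 at each size and moves toward 0.

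With size, 5 of 8 genes tested rose in CT-26 from 100 to 400 mm3 (S100a8, S100a9, Retnlg, Il1b and Il1r2), where 1.84% of 16487 genes were called and 1.05% were called higher. Retnlg had at most 1 count per CT-26 tumor of 100 mm3 and passed the filter only through larger CT-26 tumors. It could thus be tested there only as a rise, and it adds no weight to this tally or those below. The list was also chosen with earlier results of these data known. A tally above the share of all genes, here or between the models, is thus no test of the list. S100a8, S100a9, Il1b and Il1r2 also varied together in CT-26, so their calls are not separate signs. From 100 to 800 mm3 2 of 8 rose (S100a8 and S100a9), where 0.121% were called and 0.0607% were called higher. The larger and the small tumors did not overlap for 3 of the 8 genes at 400 mm3 (12.5% of all genes) and for 4 of 8 at 800 mm3 (4.97% of all genes). At 400 mm3 these were S100a8, S100a9 and Retnlg. For Retnlg the lowest tumor of 400 mm3 and the highest of 100 mm3 each had 1 count, so its separation lay under the floor. In Colon 26, 0 of 8 passed edgeR's test at 400 mm3 and 0 of 8 at 800 mm3, where 0.0789% and 0.249% of genes were called. The groups did not overlap for 1 gene at 400 mm3 (6.64% of all genes) and 3 at 800 mm3 (12.9% of all genes). At an unadjusted p under 0.05 there was 1 gene of the list at each step, Il1r2 at 400 mm3 and Il1b at 800 mm3, and DESeq2 called 0 at both. Of all 16487 genes, 1671 and 2074 were at that unadjusted level, so 1 of 8 is near the share of all genes.

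A test of the change in the model difference itself called none of the 8 genes. From 100 to 400 mm3 the difference changed by -5.01 ± 1.09 on the log2 scale for S100a9 (adjusted p = 0.12), by -4.12 ± 1.06 for S100a8 (adjusted p = 0.234) and by -2.73 ± 0.54 for Il1r2 (adjusted p = 0.12), and edgeR called 0 of 16487 genes (0.0%), with 1381 genes at an unadjusted p under 0.05. At that unadjusted level were 4 of the 8 genes, S100a8, S100a9, Retnlg and Il1r2. DESeq2 called S100a8, S100a9 and Il1r2 with adjusted p of 0.0172, 0.0052 and 0.00272. Without replicate 4 of the 400 mm3 CT-26 tumors edgeR called the same 3 (adjusted p = 0.0609, 0.0333 and 0.0209). Without replicate 1 of the 800 mm3 CT-26 tumors it called S100a9 and Il1r2 (adjusted p = 0.0656 for both), and without replicate 2 of the 100 mm3 CT-26 tumors it called Il1r2 (adjusted p = 0.0728). From 100 to 800 mm3 the change was -3.77 ± 1.06 for S100a9 (adjusted p = 0.169) and -3.09 ± 1.04 for S100a8 (adjusted p = 0.254), where 0.0485% of genes were called. At this step 5 of the 8 genes had an unadjusted p under 0.05, against 1792 of all 16487 genes. DESeq2 called S100a8 and S100a9 (adjusted p = 0.0853 and 0.041). EdgeR called S100a9 at this step without replicate 4 of the 400 mm3 CT-26 tumors (adjusted p = 0.097).

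**Figure D3:**
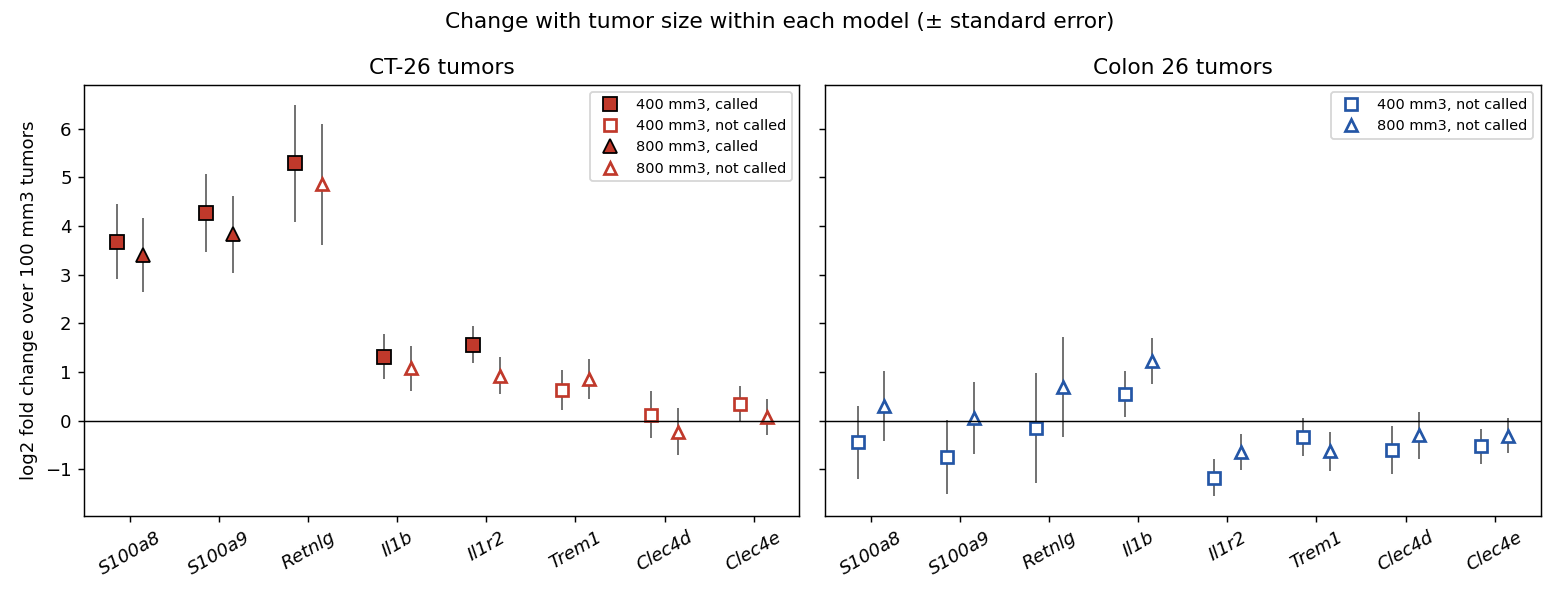
Log2 fold change of 400 mm3 (squares) and 800 mm3 (triangles) over 100 mm3 tumors, with its standard error, within CT-26 (left) and Colon 26 (right), with filled symbols for genes past both thresholds. In CT-26 the changes of S100a8, S100a9 and Retnlg lie between 3.40 and 5.29, and in Colon 26 every gene lies between -1.17 and 1.22 with no filled symbol.

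Tumors of a model also differed among themselves, and S100a8 was set against the other 8 genes over the 12 tumors of each model on the scale of log2(CPM + 1). Of 16 relations, 5 had an adjusted p of at most 0.1 for Pearson's r, by two-sided permutation tests with 100000 resamples. In CT-26 S100a8 and S100a9 had r = 0.99 and rho = 0.97 (adjusted p = 8e-05 for both), and r was 0.98 without the 2 tumors farthest from the median and 0.98 as deviations from the size group mean. For Retnlg r was 0.96 and rho 0.96 (adjusted p = 8e-05 for both), with 0.92 without the 2 tumors and 0.95 within sizes. The raw p of these relations, 1e-05, is the smallest that 100000 resamples can give.

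Il1r2 and Il1b also varied with S100a8 in CT-26. Il1r2 had r = 0.89 and rho = 0.83 (adjusted permutation p = 0.00139 and 0.00901), 0.83 without the 2 tumors and 0.80 within sizes. Il1b had r = 0.81 and rho = 0.76 (adjusted permutation p = 0.00678 and 0.0226), 0.75 without the 2 tumors and 0.66 within sizes. Trem1 (r = 0.45, rho = 0.39), Clec4d (0.47, 0.47) and Clec4e (0.51, 0.48) had adjusted permutation p of 0.171 or more for r. Within sizes, however, Clec4d had r = 0.74 and rho = 0.83 (adjusted permutation p = 0.017 for r), while Clec4e had r = 0.52 (0.141) and Trem1 r = 0.32 (0.389). In Colon 26 S100a9 had r = 0.87 and rho = 0.50 (adjusted permutation p = 0.00678 and 0.255). Without the 2 tumors with the least S100a8 this r was 0.41, and within sizes r was 0.85 and rho 0.83 (adjusted permutation p = 0.00389 for r). Trem1 had r = -0.14 and rho = -0.24 with S100a8 there (adjusted permutation p = 0.701 and 0.508).

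**Figure D4:**
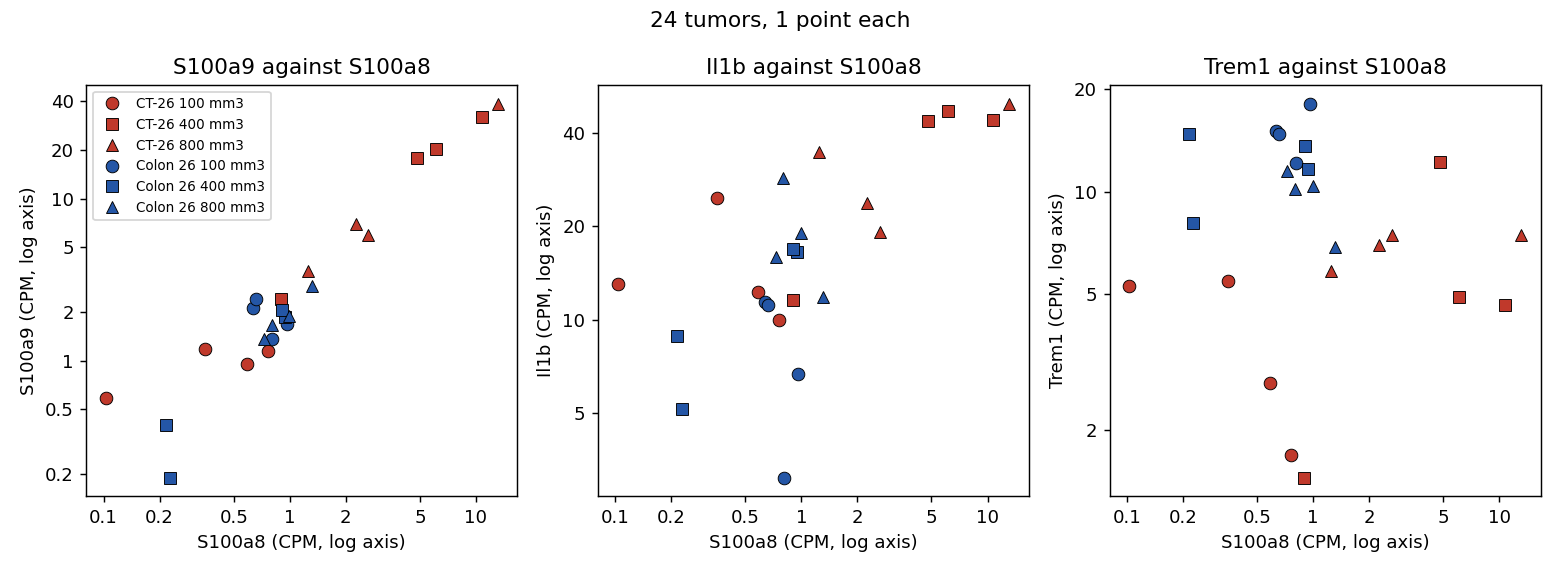
Levels of S100a9, Il1b and Trem1 against S100a8 in CPM (log axes) in the 24 tumors, with CT-26 in red, Colon 26 in blue and symbols for size. In CT-26 S100a9 follows S100a8 closely and Il1b more loosely, and in the Trem1 panel 11 of the 12 CT-26 tumors lie at or below 7.48 CPM and 11 of the 12 Colon 26 tumors at or above 8.07 CPM.

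Among 13509 genes with a mean of at least 1 CPM in tumors, the genes outside the list whose rank order was most like that of S100a8 in both models were Ankrd33b, the chemokine gene Cxcl3, Rabl3, Sbno2 and Dnah17. Likeness was the lower of the 2 Spearman's rho values over 12 tumors each, and it was 0.73 for Ankrd33b and 0.70 for Cxcl3, falling to 0.62 for Dnah17. The genes most like Il1b were the chemokine gene Cxcl1 (0.85), the cytokine gene Il6 (0.81), Zc3h12a (0.80), Lcn2 (0.79) and Sbno2 (0.78). Zc3h12a encodes a nuclease that degrades mRNA of inflammatory cytokines. These values describe the order of tumors and carry no test, and all come from the same libraries as the members.

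The genes that draw and bind neutrophils were then read as lists. Of 9 attractant and growth factor genes, 7 were tested at 400 mm3, and 5 were lower in Colon 26 (Cxcl1, Cxcl2, Cxcl3, Cxcl5 and Ppbp) with a median log2 difference of -2.18, against 0.03 over all genes tested. At 100 mm3 2 of 5 were lower (Cxcl1 and Cxcl3) and at 800 mm3 1 of 7 (Cxcl1). Cxcl1, a ligand of Cxcr2, stood at 5.19, 36.1 and 22.7 CPM on average in CT-26 tumors of the 3 sizes and at 0.838, 1.38 and 4.86 in Colon 26, with log2 differences of -2.64 ± 0.44, -4.71 ± 0.86 and -2.23 ± 0.46. It was also present in the cultures, with means of 6.55 CPM for CT-26 and 0.920 for Colon 26. Within CT-26, Cxcl1 rose from 100 to 400 mm3 by 2.83 ± 0.64 on the log2 scale and Cxcl5 by 2.35 ± 0.75, 2 of 7 tested with a median of 1.70, against 0.00 over all genes. In Colon 26 Il6 passed from 100 to 800 mm3, 1 of 7.

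Of 12 surface and chemoattractant receptor genes, 11 were tested. Cxcr2 was higher in Colon 26 at 100 mm3 (1.34 ± 0.31) and lower there at 400 (-2.54 ± 0.72) and 800 mm3 (-1.63 ± 0.68), and it rose in CT-26 from 100 to 400 mm3 by 2.59 ± 0.68, the 1 gene of 11 that did. At 400 mm3 Csf3r and Fpr1 were lower too. Ltb4r1, a receptor for leukotriene B4, was higher in Colon 26 at 100 and 400 mm3 (1.14 ± 0.33 and 1.33 ± 0.57). Ceacam1, an adhesion molecule that epithelium also carries, was lower at all 3 sizes, with log2 differences of -2.01 to -3.34. It stood at 18.2 CPM in CT-26 culture and 0.530 in Colon 26 culture, so its difference was present in the cell lines. The integrin genes Itgam and Itgb2, which all myeloid cells carry, stood at 208 and 100.1 CPM over all tumors and passed in no comparison between tumors.

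**Figure D5:**
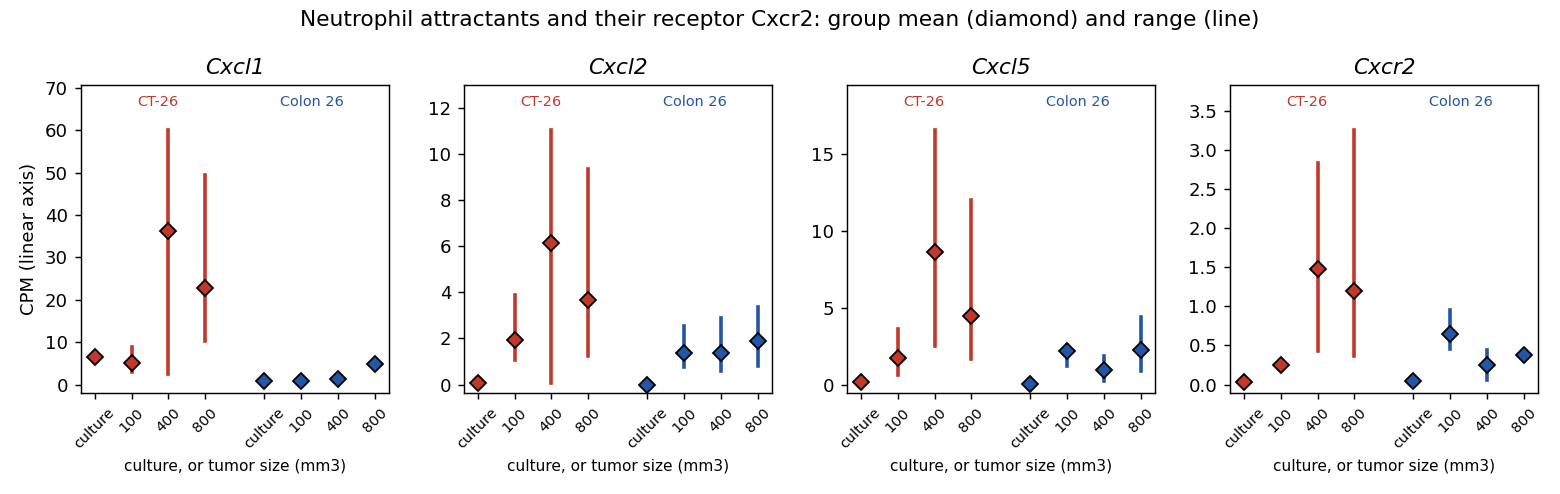
Mean (diamond) and range (line) in CPM, on linear axes with a scale for each gene, of Cxcl1, Cxcl2, Cxcl5 and the receptor gene Cxcr2 in the 8 groups of libraries, with CT-26 in red and Colon 26 in blue. Means peak in CT-26 tumors of 400 mm3, at 36.1 CPM for Cxcl1 and 1.48 CPM for Cxcr2, and the ranges there are wide.

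Granule genes gave a mixed picture. Of 14, 6 or 7 were tested between the models at each size, and at 400 mm3 Ctsg and Lcn2 were lower in Colon 26 and Padi4 higher. At 800 mm3 Lcn2, Mmp9 and Padi4 were higher and Ctsg and Mmp8 lower, and at 100 mm3 Padi4 was higher and Ctsg lower. Padi4, which encodes a citrullinating enzyme, stood at 13.8 CPM in Colon 26 culture and 0.0836 in CT-26 culture, so its difference of 4.42 to 4.83 in tumors was present in the cell lines. Lcn2, an iron-binding granule protein also made by epithelium, stood at 91.8 and 28.1 CPM in the CT-26 and Colon 26 cultures and rose in Colon 26 from 100 to 800 mm3 by 3.45 ± 0.81 on the log2 scale (adjusted p = 0.071). In CT-26 from 100 to 400 mm3 Lcn2 and Mmp8 rose, 2 of 9 tested.

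Of 20 genes of activated neutrophils and monocytes, 6 of 15 tested were lower in Colon 26 at 400 mm3 (Ptgs2, Hdc, G0s2, Ccl3, Ccl4 and Hcar2), with a median log2 difference of -0.71. At 100 mm3 1 of 14 was lower (Hdc) and 1 higher (Lrg1), and at 800 mm3 1 of 15 was lower (Hdc). In CT-26 from 100 to 400 mm3 Ptgs2, G0s2 and Hcar2 rose, 3 of 17. Ptgs2, the inducible cyclooxygenase, rose by 1.35 ± 0.33 on the log2 scale there, and it was far higher in culture, with a mean of 1144 CPM for CT-26 and 983 CPM for Colon 26, than in any tumor group. Il1rn and Adam8 passed in no comparison between tumors.

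The partners of the interleukin-1 and Trem1 genes moved little. Of 19 genes of interleukin-1 processing and signaling, 2, 3 and 0 were lower in Colon 26 at the 3 sizes (Casp1 and Il18bp at 100 mm3, with Il1rl1 at 400 mm3), and 0 of 19 changed with size in either model. Il1r1, the signaling receptor for interleukin-1, stood between 61.7 and 80.4 CPM in the tumor groups, and Irak1 between 146 and 179. Of 18 adaptors and relatives of Trem1 and the lectins, Clec5a was higher in Colon 26 at 100 mm3 and Clec5a and Card9 at 400 mm3. Tyrobp, the adaptor through which Trem1 signals, stood at 67.3 CPM over all tumors with log2 differences of 0.43, 0.45 and 0.32, none past the minimum. Fcer1g and Bcl10, adaptor genes of the lectin pathway, likewise passed in none. Of 13 other S100 genes and calprotectin receptors, 12 were tested and 0 passed between the models at any size (S100a6 had a log2 difference of 0.95 ± 0.10 at 400 mm3, adjusted p = 9.39e-05, under the minimum fold) or with size in either model. S100a4, S100a6 and S100a11 stood at 1913, 2196 and 479.6 CPM over all tumors.

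Markers of other cells differed between the same groups. At 400 mm3, where the members differed most, 3 of 3 tested NK cell markers, 3 of 4 mast cell and basophil markers and 5 of 6 T cell markers were lower in Colon 26. The summed NK list stood at 18.1 to 26.7 CPM in CT-26 and 0.948 to 6.13 in Colon 26, the mast cell and basophil list at 42.2 to 76.1 and 21.5 to 25.7, and the T cell list at 12.1 to 55.4 and 4.25 to 13.2. In culture the mast cell and basophil list summed to 11.1 to 11.4 CPM for CT-26 and 22.2 to 26.2 for Colon 26. Its sums in Colon 26 tumors thus overlapped those of the cultured line. One of the 4 NK markers, Klra8, was at 0 in all tumors. The dendritic cell list went the other way, with sums of 10.6 to 20.5 CPM in CT-26 and 21.4 to 27.0 in Colon 26. In culture it summed to 4.01 to 4.83 CPM for CT-26 and 12.9 to 13.9 for Colon 26. Of 7 macrophage markers 1 was higher in Colon 26 (Csf1r) and the sums, 294 to 1214 and 952 to 2093 CPM, overlapped. The macrophage sums in culture were 61.6 to 68.7 CPM for CT-26 and 3.78 to 4.81 for Colon 26. Of 6 monocyte markers Ccr2 was higher and Ly6c2 and Plac8 lower, with sums of 166 to 293 and 114 to 385 CPM. At 800 mm3, 4 of 4 skeletal muscle markers and 4 of 5 red blood cell markers were lower in Colon 26, with red blood cell sums of 88.9 to 257 CPM in CT-26 and 56.8 to 119 in Colon 26. The part of these cells in the results was not tested.

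Within CT-26, no NK, mast, basophil, T cell, macrophage, monocyte, muscle or red blood cell marker rose from 100 to 400 mm3. That was the step at which S100a8 and S100a9 rose. From 100 to 400 mm3, 1 of 6 monocyte markers (Ccr2) and 1 of 7 macrophage markers (Mrc1) were lower, and Ptprc stood at 70.8 to 186 CPM at 100 mm3 and 43.3 to 123 at 400 mm3. Of the 4 CT-26 tumors of 400 mm3, the low replicate 4 had the highest Ptprc (123 CPM) and macrophage sum (1214 CPM) and a skeletal muscle sum of 203 CPM, against at most 0.921 in the other 3. At 800 mm3, replicate 1, the tumor with the most S100a8, had the highest Ptprc (102 CPM) and monocyte sum (360 CPM) of its group. Keratinocytes also make S100a8 and S100a9, and the 6 skin markers summed to 81.9 CPM in replicate 4 at 800 mm3 and to 2.92 to 6.18 CPM in the other 23 tumors. That tumor held 2.65 CPM of S100a8, within its group, and without it S100a9 kept its call in CT-26 at 800 mm3 while S100a8 missed the threshold (adjusted p = 0.115). Eosinophil markers summed to at most 0.657 CPM. The part of these differences between tumors was not tested.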

How the data were processed

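RNA-seq was analysed from 30 libraries, whose 8 groups were taken from the labels. The authors made poly-A libraries, sequenced them from both ends and counted reads on Ensembl release 78 genes with Array Studio. They deposited estimated counts, not normalized (22.6% of non-zero values were not whole, within 1e-06), and FPKM. The aligner, genome build and handling of strand are not given in the sources used here, and the submitters' processing notes name DESeq2 1.24.0. Symbols and GRCm38 coordinates came from GENCODE for 52207 of 53431 identifiers (97.7%).

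The estimated counts, rounded, were tested with edgeR 4.0.16 (quasi-likelihood, TMM, filterByExpr, Benjamini-Hochberg over all genes tested) in R 4.3.3. Thresholds were an adjusted p of at most 0.1 and a log2 fold change of at least 1, as in the study, whose tool was DESeq2. Model differences were fitted within each size or in culture, and size changes and their differences between models over the 24 tumors. Standard errors were derived from the F statistic. Alternatives were DESeq2 1.42.0, limma 3.58.1 on log2(FPKM + 1) and log2(FPKM + 0.1), other normalizations, filters and thresholds, all 30 libraries in 1 fit, log2 tumor volume added to the model, and fits without 1 replicate each. Python 3.11.15, scipy 1.17.1 and matplotlib 3.10.9 served for the rest.

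The members and lists were chosen with earlier results of these data known. Named are the members, the 3 most abundant tumor genes of each list, markers, the 5 genes most like S100a8 and Il1b, and list genes that passed, the last chosen after their values were seen. Every one of 42 replicate pairs differed by 2.91 to 73.9 times counting noise, so each library was used as 1 replicate. Tested on simulated counts, the fit at 100 mm3 recovered 63 of 69 genes changed 4-fold and 25 of 67 changed 2-fold. Antibody treatment, exome and flow cytometry data were not analysed here. The values of 1 gene of the receptor list are not reported here.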

Additional observations from a re-analysis of the deposited data

Results flagged for a closer look

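Of 51 sets of 4 tumors examined, 7 had 1 tumor whose gap to its nearest neighbor took up most of the range (Dixon's criterion). For normally distributed values chance gives about 1 in 20 sets. The CPM were not shown to be so distributed, so 7 of 51 cannot be weighed against that rate. Replicate 1 of the 800 mm3 CT-26 tumors stood apart at the top for 4 genes, with 13.1 CPM of S100a8 (next 2.65), 38.5 of S100a9 (next 6.96), 1.14 of Retnlg (next 0.176) and 4.01 of Il1r2 (next 1.90). S100a8, S100a9, Retnlg and Il1r2 varied together in CT-26, so these 4 are not separate signs. Replicate 4 of the 400 mm3 CT-26 tumors stood apart at the bottom for Il1b, with 11.6 CPM against 43.6 to 46.8 in the other 3. The other 2 sets rest on single counts, Retnlg in replicate 2 of the 100 mm3 CT-26 tumors (0.0327 CPM) and Ly6g in replicate 2 of the 800 mm3 Colon 26 tumors (0.0299 CPM), with no count in the other tumors of those groups.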

How the results depend on the processing

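Of 2457 settings tried on the log2 differences of single genes, 2348 left the direction and the side of the thresholds as they were, 26 lost a call and 41 gained one. The other 42 changed the sign of a difference that passed in neither fit, and no called difference changed sign. Scaling by RLE or by library size moved none of the 144 mean levels by more than 1 SD. The number of listed genes called moved by over 1.5 times in 20 of 137 settings. DESeq2 gave 1 in culture (main 0), and for the change of the model difference 3 at 400 mm3 and 2 at 800 mm3 (main 0). All 30 libraries in 1 fit gave 1, 3 and 1 for the same comparisons, and no filter on low counts gave 1 in culture, in each case Clec4d there. Requiring at least 10 counts in every library gave 2 for the models at 400 mm3 (main 4), 2 over all tumors (main 4), 2 for CT-26 at 400 against 100 mm3 (main 5), and 0 for CT-26 at 800 mm3 (main 2) and for tumors against culture in CT-26 (main 6) and Colon 26 (main 7), since that filter leaves untested every gene with fewer counts in any 1 library. Limma on log2(FPKM + 1) gave 1 at 100 mm3 (main 2), 2 over all tumors, 2 for CT-26 at 400 mm3 and 1 at 800 mm3, and the cause was not tested. Il1b lost its call for CT-26 at 400 mm3 with either pseudocount. No minimum fold gave 4 between the models at 100 and 4 at 800 mm3 (main 2), and an adjusted p of 0.05 gave 0 for CT-26 at 800 mm3.

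Leaving out 1 replicate gave 2 to 4 calls between the models at 100 mm3, 4 to 5 at 400 mm3, 2 to 3 at 800 mm3, 3 to 4 over all tumors, and 0 to 0 in culture. For CT-26 it gave 4 to 5 at 400 mm3, 0 to 3 at 800 mm3 and 6 to 7 against culture. For Colon 26 it gave 0 to 0 at both sizes and 7 to 7 against culture, and for the change of the model difference 0 to 3 and 0 to 1. Of the 16 relations with S100a8, 5 to 9 passed (main 5), 9 without replicate 3 of the 100 mm3 Colon 26 tumors. With log2(CPM + 0.1) 7 passed, and 6 as deviations from size means. Between edgeR and DESeq2 the genes called over the whole table went from 20 to 54 for CT-26 at 800 mm3, 13 to 26 and 41 to 164 for Colon 26, 0 to 30 and 8 to 62 for the changes of the difference, and 2281 to 3586 over all tumors. No paired analysis was possible because the labels carry no replicate numbers. Depth limits Ly6g and Retnlg, which lay at or near 3 counts in most tumors.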
